A study of Caenorhabditis elegans with 9 samples.

Results

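The *C. elegans* intestine takes up food across a brush border of microvilli that rests on a terminal web of intermediate filaments, and the transcripts examined here are 9 genes that build these structures: *act-5*, *ifb-2*, *ifc-1*, *ifc-2*, *ifd-1*, *ifd-2*, *ifo-1*, *erm-1* and *eps-8*. The genes were taken by symbol from the 46926 genes of the count table. All 9 had counts in every library, and all 9 were among the 14332 genes that passed the filter on low counts. Gene expression was measured by RNA-seq of polyA-enriched RNA from whole wild-type worms of the strain N2, in 3 libraries per condition. Worms of all 3 conditions ate HT115 control bacteria up to adult day 1 and then spent 24 h on plates with 10 μg/ml kanamycin, which stops bacterial growth. AL worms were given undiluted bacteria (*ad libitum*), DR1 worms diluted bacteria, and DR0 worms no bacteria, as 2 grades of solid dietary restriction (sDR). The comparisons ask how each grade of food restriction moved these transcripts relative to AL, and whether the grades differed from each other.

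As background, each microvillus holds a bundle of actin filaments, which in the worm gut are built from the actin isoform ACT-5. The bundles run down into the terminal web, and below it lies the endotube, a dense sheath of intestinal intermediate filaments that surrounds the lumen and gives it mechanical strength. IFB-2 is the obligate partner of the other intestinal filament proteins, IFO-1 anchors the sheath at the apical domain, ERM-1 (the single ezrin, radixin and moesin homologue) links actin to the apical membrane, and EPS-8 acts on actin filament ends in the microvillus.

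The food-restricted worms had much less RNA for the actin core and for most of the filament proteins, but not for all of the structure. Both grades went with a large fall of *act-5*, falls of *ifb-2*, *ifc-1* and *ifc-2*, a smaller decrease of *erm-1*, and a small increase of *ifo-1*. With the default scaling described below, *ifd-2* stayed close to its AL level, and *eps-8* was within 0.21 of AL on the log2 scale. Here a gene is called upregulated or downregulated when edgeR's quasi-likelihood test gave a Benjamini–Hochberg adjusted p under 0.05 over all genes tested and the log2 fold change was beyond 1 in either direction. Genes that met the first threshold only are described as higher or lower at the adjusted p alone. The 9 genes were chosen with earlier results of these data known, so their counts are a description. In DR1, 4 of the 9 genes were downregulated, against 8.62% of all genes tested, and none was upregulated, against 10.6%. In DR0, 5 were downregulated, against 8.16% of all genes, and none was upregulated, against 11.3%. The median log2 fold change of the 9 genes was -0.99 in DR1 and -1.06 in DR0, whereas that of all genes was 0.03 in both. DR1 and DR0 were compared with the same AL libraries, so their values are given side by side and the second is not an independent repeat of the first.

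The libraries held 9203611 to 12012750 counts each, and none stood apart from its group on the first principal components. Expression is given as CPM, read counts scaled to a common library size, by TMM (trimmed mean of M values, edgeR's default). Total-count scaling in place of TMM moved the median log2 fold change of all genes to 0.38 in DR1 and 0.09 in DR0, and to -0.29 between DR0 and DR1, and upper-quartile scaling moved it to 0.23 in DR1 and 0.24 in DR0. Whole worms were sequenced, so less of these RNAs per intestinal cell and a smaller share of intestinal RNA in the worm cannot be told apart. No source states that libraries of 1 condition are from different cultures, and the p values cover the spread among these libraries alone.

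**Figure D1:**
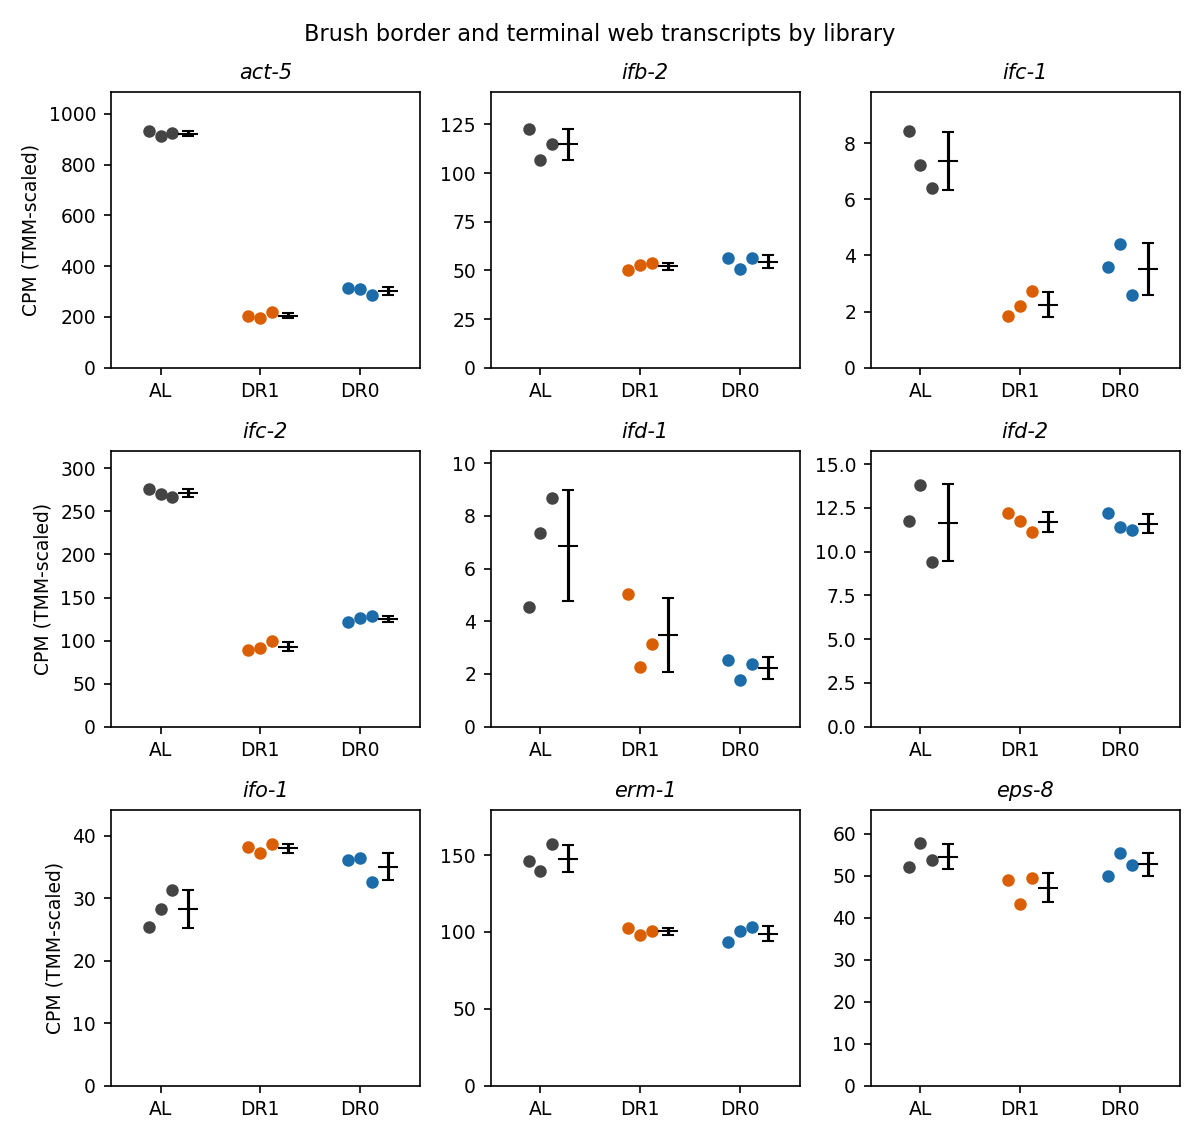
Expression of the 9 brush border and terminal web genes in each library, as TMM-scaled CPM on linear axes that start at 0, with points for single libraries and bars for the mean ± SD (n = 3) of AL, DR1 and DR0. The *act-5* points sit between 911 and 931 CPM in AL and no higher than 315.4 in any restricted library, while the *ifd-2* points of all conditions lie between 9.43 and 13.8.

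*act-5* (WBGene00000067) lies on the minus strand of chromosome III from 13604412 to 13606066 of WBcel235, with 1 annotated transcript. Its expression in the 3 AL libraries was 931, 911 and 924 CPM. It was 203, 195 and 218 CPM in DR1 and 315, 308 and 286 CPM in DR0. The groups did not overlap, the AL libraries agreed to within a few percent, and every DR0 library lay above every DR1 library. The log2 fold change was -2.17 in DR1 (s.e. 0.046, edgeR quasi-likelihood adjusted p = 6.71e-22) and -1.61 in DR0 (s.e. 0.045, adjusted p = 2.65e-19). Thus *act-5* stood at 22.3% of its AL level in DR1 and at 32.9% in DR0. The actin genes are alike in sequence, so reads that fit more than 1 of them may not have been counted, but no other annotated gene shares exonic bases with *act-5*.

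*ifb-2* (WBGene00002054, plus strand of chromosome II from 5750188 to 5754140) codes for the filament protein found throughout the endotube. Its libraries read 123, 107 and 115.1 CPM under AL, 50.1, 52.8 and 53.7 under DR1 and 56.3, 50.5 and 56.3 under DR0. The restricted groups overlapped each other and lay far below AL. On the log2 scale it changed by -1.14 (s.e. 0.066, edgeR quasi-likelihood adjusted p = 3.31e-13) and -1.08 (s.e. 0.067, adjusted p = 1.76e-12), which leaves 45.5% and 47.3% of the AL level. These lie near the fold threshold: the call was lost in DR1 with total-count scaling (-0.79), and with upper-quartile scaling in DR1 (-0.94) and in DR0 (-0.87).

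*ifc-2* (WBGene00002056, minus strand of chromosome X from 642156 to 654904, 7 annotated transcripts) codes for a filament protein of the endotube that is also known from the excretory canal. The AL libraries gave 276, 271 and 267 CPM. DR1 libraries gave 88.6, 91.0 and 99.0 CPM, and DR0 libraries 121.8, 126 and 128. The 3 groups were fully separate, with AL highest and DR1 lowest. *ifc-2* fell by 1.54 in DR1 (s.e. 0.050, edgeR quasi-likelihood adjusted p = 3.41e-18) and by 1.11 in DR0 (s.e. 0.049, adjusted p = 2.41e-15) on the log2 scale. With upper-quartile scaling the DR0 value was -0.91 and the call was lost.

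*ifc-1* (WBGene00002055, plus strand of chromosome V from 2881393 to 2883753) and *ifd-1* (WBGene00002057, minus strand of chromosome X from 8820703 to 8824448) are minor filament genes with few reads. *ifc-1* had 76, 63 and 70 counts under AL, 20, 24 and 36 under DR1 and 31, 40 and 26 under DR0. In CPM these were 8.44, 7.24 and 6.41 under AL, 1.83, 2.19 and 2.74 under DR1 and 3.57, 4.42 and 2.58 under DR0. Both restricted groups lay below AL and overlapped each other. *ifc-1* fell by 1.69 in DR1 (s.e. 0.26, edgeR quasi-likelihood adjusted p = 5.77e-06) and by 1.06 in DR0 (s.e. 0.25, adjusted p = 0.000952) on the log2 scale. The DR0 call did not hold with upper-quartile scaling (-0.86), without AL replicate 1 (-0.96) or without DR0 replicate 3 (-0.88).

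*ifd-1* had 41, 64 and 95 counts under AL, 55, 25 and 41 under DR1 and 22, 16 and 24 under DR0. The corresponding values were 4.56, 7.35 and 8.69 CPM under AL, 5.02, 2.28 and 3.12 under DR1 and 2.54, 1.77 and 2.38 under DR0. AL and DR1 overlapped, since AL replicate 1 lay below DR1 replicate 1, whereas every DR0 library lay below every AL library. *ifd-1* was downregulated in DR0, at -1.63 (s.e. 0.31, edgeR quasi-likelihood adjusted p = 0.000101). In DR1 its log2 fold change of -0.99 (s.e. 0.29, adjusted p = 0.00456) missed the fold threshold by a small margin, and the grades did not differ by the test (adjusted p = 0.140). It passed without AL replicate 1 (-1.22), without DR1 replicate 1 (-1.34), with limma-voom (-1.03) and without the filter (-1.01).

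*ifd-2* (WBGene00002058, minus strand of chromosome X from 813854 to 815929) codes for another protein of the intestinal filament set, and its transcript was an exception. The libraries gave 11.8, 13.8 and 9.43 CPM under AL, 12.2, 11.8 and 11.13 under DR1 and 12.2, 11.4 and 11.2 under DR0. All 3 groups overlapped, and the AL libraries spanned the restricted ones. With TMM scaling the fitted log2 fold changes were close to 0, at 0.01 in DR1 (95% interval -0.30 to 0.33) and 0.0011 in DR0 (95% interval -0.32 to 0.32). The lower bounds lie well above the fold changes fitted for *ifb-2*, *ifc-1* and *ifc-2*, although the difference between genes was not itself tested. The DR1 value depended on the scaling. Total-count scaling raised it to 0.36, which met the adjusted p (edgeR quasi-likelihood adjusted p = 0.0410). Upper-quartile scaling gave 0.21, which did not (adjusted p = 0.233).

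*ifo-1* (WBGene00018350, minus strand of chromosome IV from 7320734 to 7326663) codes for the organizer that keeps intestinal filaments at the apical side. With TMM scaling it was the 1 gene of the 9 that was higher in restricted worms at the adjusted p. Its AL libraries gave 25.3, 28.3 and 31.4 CPM, its DR1 libraries 38.1, 37.2 and 38.6, and its DR0 libraries 36.1, 36.5 and 32.7. No restricted library overlapped with AL. The log2 fold change was 0.42 in DR1 (s.e. 0.091, edgeR quasi-likelihood adjusted p = 0.000384) and 0.30 in DR0 (s.e. 0.094, adjusted p = 0.00825), both well inside the fold threshold. At the adjusted p alone, 28.5% of all genes were higher in DR1 and 29.6% in DR0.

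*erm-1* (WBGene00001333, minus strand of chromosome I from 5284026 to 5291604), the link between actin and the apical membrane, was lower in both grades. The fall was about the same in both with TMM scaling, whereas total-count scaling separated the grades, as given below. AL libraries read 146, 140 and 157 CPM. DR1 libraries read 102, 98.0 and 100.9 CPM and DR0 libraries 93.4, 100.5 and 103 CPM. The restricted groups overlapped each other and lay below AL. At -0.56 (s.e. 0.055, edgeR quasi-likelihood adjusted p = 5.43e-09) and -0.58 (s.e. 0.056, adjusted p = 4.65e-09), the log2 fold changes met the adjusted p alone and left 67.9% and 67.0% of the AL level. *erm-1* is also expressed in the excretory canal, gonad and other epithelia, and these whole-worm libraries do not separate tissues.

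*eps-8* (WBGene00001330, plus strand of chromosome IV from 14879484 to 14900653, 12 annotated transcripts), the actin capping and bundling factor of microvilli, moved least among the genes that are not filament proteins. It gave 52.1, 57.9 and 53.7 CPM under AL, 48.9, 43.2 and 49.5 under DR1 and 50.0, 55.5 and 52.6 under DR0. The DR1 libraries lay just below the AL libraries, while DR0 overlapped with AL. The log2 fold change was -0.21 in DR1 (s.e. 0.075, edgeR quasi-likelihood adjusted p = 0.0211) and -0.05 in DR0 (95% interval -0.21 to 0.11). With total-count scaling the sign in DR1 turned, to 0.14, with upper-quartile scaling the value was -0.0090, and in neither case was the test passed. Of its 3787 exonic bases, 64 are shared with small annotated piRNA genes, which leaves nearly all of the gene to itself.

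At the adjusted p alone, 7 of the 9 genes were lower in DR1, against 31.6% of all genes, and 6 were lower in DR0, against 31%. Libraries did not overlap between AL and DR1 for 6 genes that were lower (33.2% of all genes) and 1 that was higher (31.5%). For AL and DR0 the counts were 6 (32.6%) and 1 (31.7%). At the adjusted p alone, 6 genes were lower in both grades, against 23.2% of all genes, and *ifo-1* was higher in both, against 19.9%. The genes downregulated in both grades were *act-5*, *ifb-2*, *ifc-1* and *ifc-2*, where 5.85% of all genes were downregulated in both. The DR0 count rests on values close to the fold threshold. It was 2 with upper-quartile scaling, with *act-5* and *ifd-1* left, and 3 when genes were required to average at least 5 CPM, where *ifc-1* and *ifd-1* were not tested.

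**Figure D2:**
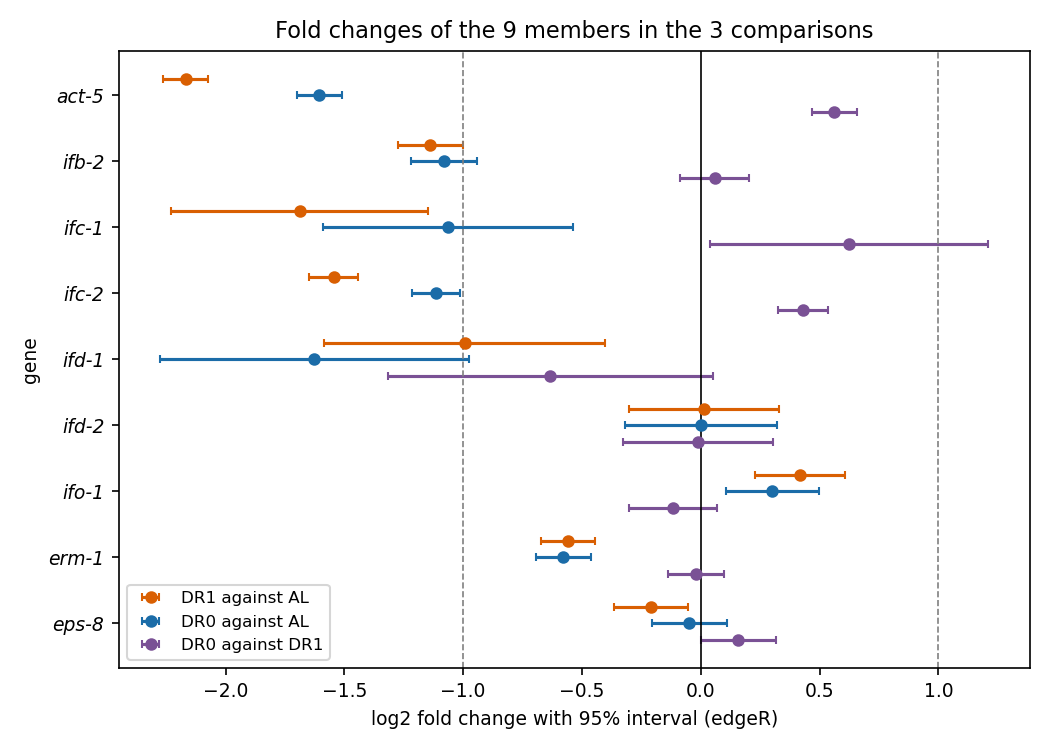
Fitted log2 fold changes of the 9 genes with 95% intervals from edgeR, for DR1 against AL (orange), DR0 against AL (blue) and DR0 against DR1 (purple), with dashed lines at the fold threshold. *act-5* lies farthest to the left in DR1 at -2.17, *ifd-2* is centred on 0 in all 3 comparisons, and *ifo-1* lies to the right of 0 in both comparisons with AL.

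The second question was whether worms without bacteria differed from worms on diluted bacteria. None of the 9 genes was called between DR0 and DR1 by edgeR, limma-voom or DESeq2, where 1.03% of all genes were downregulated and 1.44% upregulated. By edgeR's quasi-likelihood test at the adjusted p alone, 2 of the 9 were higher in DR0 and none was lower, against 21.2% and 17.8% of all genes. By the same test *ifc-1* and *eps-8* had an unadjusted p under 0.05 but missed the adjusted p (0.0856 and 0.105). The share of all genes at that looser threshold was not counted. The 2 that met the adjusted p were *act-5*, with a log2 fold change of 0.56 (s.e. 0.046, adjusted p = 4.84e-10), and *ifc-2*, with 0.43 (s.e. 0.051, adjusted p = 2.86e-07). Without bacteria the loss of these transcripts was thus smaller than on diluted bacteria. Total-count scaling lowered both values, to 0.27 and 0.14, and both still met the adjusted p.

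The other genes did not separate the grades by the test. *ifb-2* differed by 0.06 (95% interval -0.09 to 0.20) and *erm-1* by -0.02 (95% interval -0.14 to 0.10), both under TMM scaling. Under total-count scaling both were lower in DR0 than in DR1 at the adjusted p, at -0.23 and -0.31, and so was *ifo-1*, at -0.41. *ifc-1* was at 0.63 (edgeR quasi-likelihood adjusted p = 0.0856) and *ifd-1* at -0.63 (adjusted p = 0.140), so the pair of low-count filament genes lay on opposite sides of 0 with wide intervals. *ifo-1* at -0.12, *eps-8* at 0.16 and *ifd-2* at -0.01 did not pass either. For *ifo-1* and *eps-8* the DR0 and DR1 libraries did not overlap all the same. In all, 3 of the 9 genes had every DR0 library above every DR1 library, against 25.3% of all genes, and 1 had every DR0 library below, against 23.2%.

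Levels were compared between genes after division by exonic length, as CPM per kilobase. The length is that of all annotated exons of a gene merged, so a gene expressed mainly from shorter transcripts is understated. This may affect genes with several annotated transcripts, such as *ifc-2* (7) and *eps-8* (12), and the shares and ratios built on this scale. Which transcripts were expressed was not tested. On that scale *act-5* was by far the most abundant in AL, at 726 ± 8.22 (SD, n = 3). *erm-1* at 60.6 ± 3.59 and *ifb-2* at 60.2 ± 4.18 came next and overlapped with each other, followed by *ifc-2* at 54.1 ± 0.953, whose libraries all lay below those of both. *eps-8* had 14.4 ± 0.789, and the rest had less than 10 CPM per kilobase: *ifd-2* (7.71) and *ifo-1* (7.02) overlapped, as did *ifc-1* (4.38) and *ifd-1* (3.56). In DR1 the per-kilobase level of *act-5* was 162 ± 8.93 and in DR0 239 ± 12.2, still first in each. *erm-1*, at 41.2 and 40.6, then stood clear of *ifb-2*, at 27.3 and 28.5. *ifo-1*, at 9.41 and 8.69, had moved above *ifd-2*, at 7.74 and 7.67.

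The make-up of the set therefore shifted away from actin. Per unit length, *act-5* made up 77.4% ± 0.197 of the 9 transcripts in AL, 57.4% ± 0.796 in DR1 and 65.1% ± 1.49 in DR0 (SD, n = 3), and the 3 groups did not overlap. These shares do not depend on how the libraries were scaled. The share of *erm-1* ran from 6.20% to 6.83% in AL, from 14.1% to 15.02% in DR1 and from 10.2% to 11.9% in DR0, and the mean share of *ifo-1* was 0.748%, 3.35% and 2.37%. Among the 5 filament genes alone, *ifb-2* held 46.3%, 48.2% and 44.2%, and the AL range of its share overlapped with those of both grades. *ifc-2* held 41.6% in AL, 32.6% for DR1 and 38.8% for DR0, and *ifd-2* 5.94%, 13.7% and 11.9%. Summed over the 9 genes, expression was 1565 ± 19.8 CPM with undiluted bacteria, 553 ± 21.5 with diluted bacteria and 687 ± 10.9 without bacteria, and *act-5* dominates that sum.

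**Figure D3:**
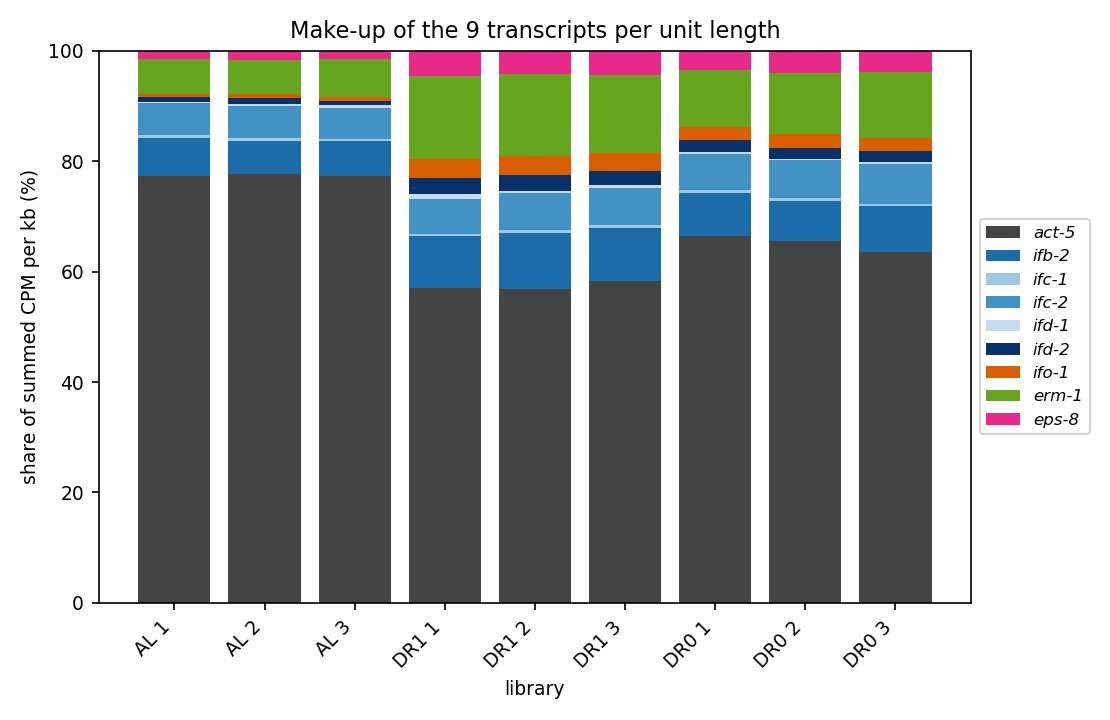
Share of each gene in the summed CPM per kilobase of the 9 genes, in percent, with 1 bar for each of the 9 libraries. The dark *act-5* segment takes 77.2% to 77.6% in AL, 56.8% to 58.3% in DR1 and 63.5% to 66.4% in DR0, and the green *erm-1* segment widens in the restricted libraries.

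Ratios within a library are likewise free of scaling and show how unequal the changes were. The ratio of *act-5* to *erm-1* was 12.01 ± 0.630 in AL, 3.92 ± 0.188 in DR1 and 5.90 ± 0.579 in DR0, on the per-kilobase scale. The ratio of *ifo-1* to *ifb-2*, the organizer to the filament, was 0.117 ± 0.0171 in AL, 0.344 ± 0.0139 in DR1 and 0.306 ± 0.0336 in DR0. *ifc-2* to *ifb-2* gave 0.901, 0.677 and 0.879, so the AL and DR0 ranges overlapped and DR1 lay below both. Relative to *elt-2*, the GATA factor of the intestine, whose own log2 fold changes were 0.02 and 0.07, *act-5* had 39.0 ± 4.54 counts per *elt-2* count in AL. The figures were 8.54 ± 0.580 for DR1 and 12.2 ± 1.49 for DR0. *ifb-2* went from 4.87 to 2.17 and 2.20 and *ifc-2* from 11.5 to 3.87 and 5.05, while *ifd-2* gave 0.487, 0.487 and 0.469. *elt-2* was picked for these ratios after its values were seen, and other intestinal markers moved more: *ges-1*, a gut esterase, had 1.00 for DR1 and 0.73 for DR0 on the log2 scale, *elt-7*, another GATA factor, 0.42 and 0.61, *nhx-2*, a sodium-proton exchanger, -0.47 and -0.97, and *cpr-1*, a cysteine protease, 2.76 and 3.92.

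The conventional actins offer a comparison for *act-5*. *act-1*, *act-2*, *act-3* and *act-4* code for the actins of muscle and other tissues. In DR1 their log2 fold changes were -0.87, -0.91, -1.02 and -0.98, all met the adjusted p, and *act-3* was downregulated. In DR0 they were -0.15, -0.38, -0.56 and -0.35, which met the adjusted p with no call. The value of *act-1* in DR0 turned to 0.06 with upper-quartile scaling, and *act-3* in DR1 was no longer called with total-count (-0.67) or upper-quartile scaling (-0.82). Each of the 4 was higher in DR0 than in DR1 at the adjusted p, by 0.72, 0.54, 0.46 and 0.62, and so was *act-5*. This held in direction with RLE, total-count and upper-quartile scaling. Relative to *act-4* per kilobase, *act-5* stood at 1.07 ± 0.00931 in AL and at 0.469 ± 0.0126 in DR1 and 0.450 ± 0.0288 in DR0, so the restricted grades overlapped in this ratio. Reads that fit several actin genes limit how well these genes are told apart. *act-1* and *act-3* also share exonic bases with noncoding genes on the other strand, and strand was not used in counting.

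Intermediate filament genes outside the 9 moved in both directions. Of 7 such genes, 4 were downregulated and 2 upregulated in each grade, with medians of -1.03 in DR1 and -1.23 in DR0. The falls were those of *mua-6* (-2.38 in DR1 and -2.88 in DR0), a filament of the epidermis, *ifb-1* (-1.64 and -2.06), the partner filament of epidermis and excretory canal, *ifa-4* (-1.20 and -1.54), a filament of the excretory canal, and *ifa-1* (-1.03 and -1.23). With total-count scaling *ifa-1* and *ifa-4* no longer passed the fold threshold in DR1, at -0.69 and -0.85, nor with upper-quartile scaling, at -0.84 and -0.9995. The lamin gene *lmn-1* had -0.23 and -0.15, and its sign turned in DR1 with total-count scaling and in DR0 with upper-quartile scaling. The ratio of *ifb-2* to *ifb-1* per kilobase was 1.32 ± 0.127 in AL, 1.89 ± 0.201 in DR1 and 2.62 ± 0.0579 in DR0, without overlap between the groups.

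The rises were those of *ifp-1* and *ifa-3*. *ifp-1*, whose protein also belongs to the intestinal filament set, had 8, 8 and 7 counts under AL, 28, 34 and 39 under DR1 and 21, 29 and 21 under DR0. Every restricted library lay above every AL library, with log2 fold changes of 1.82 (s.e. 0.38, edgeR quasi-likelihood adjusted p = 0.000272) and 1.65 (s.e. 0.40, adjusted p = 0.000991). Even so it reached a mean of no more than 2.88 CPM in DR1 and 2.57 in DR0. *ifa-3* had log2 fold changes of 1.47 and 1.32 from 0.687 ± 0.198 CPM in AL. Both genes passed the filter on low counts only through the restricted libraries, where they are high, so these rises are a description. Among genes known to shape the intestinal filament network, none of 3 was called. *sma-5*, a MAP kinase needed for an even endotube, was higher at the adjusted p alone, at 0.97 in DR1 and 0.70 in DR0. C15C7.5, now named *bbln-1* after the coiled-coil protein bublin, had -0.23 in DR1 and 0.36 in DR0, and *gck-4*, a Ste20-type kinase, had 0.53 and 0.08. With total-count scaling *sma-5* passed the fold threshold in DR1, at 1.32, as it did with upper-quartile scaling, at 1.17, and C15C7.5 turned to 0.12 with total counts.

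**Figure D4:**
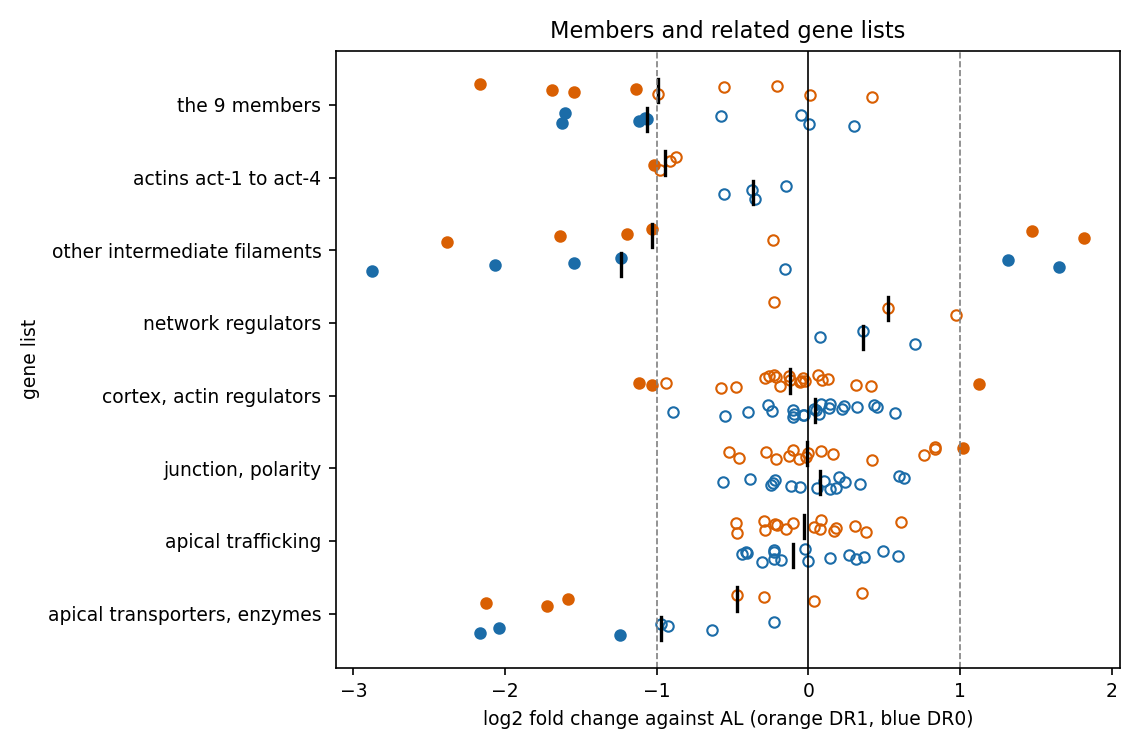
Log2 fold changes against AL for the 9 genes and for 7 related gene lists, with DR1 in orange and DR0 in blue, filled points for called genes, black ticks for list medians and dashed lines at the fold threshold. Called falls gather in the 9 genes, the other intermediate filaments and the apical transporters and enzymes, while the 16 trafficking genes hold no called gene.

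Genes that act on the same apical structures are set beside the shares of all genes: 10.6% rose and 8.62% fell past both thresholds on diluted bacteria, 11.3% and 8.16% without bacteria. Of 22 genes of the apical cortex and of actin regulation, 1 was upregulated and 2 downregulated in DR1, and none was called in DR0, with medians of -0.12 and 0.04. The rise was that of *sma-1* (1.13 in DR1), the heavy beta-spectrin of the apical cortex, which was at 0.57 in DR0. The falls were those of the profilin gene *pfn-1* (-1.11) and of *unc-60* (-1.03), which codes for ADF/cofilin, and both calls were lost with total-count scaling (-0.77 and -0.68) and with upper-quartile scaling (-0.92 and -0.83). Of 16 genes of apical junctions and polarity, *crb-1*, a Crumbs homologue, was the 1 called with TMM scaling, at 1.02 in DR1, and part of its exons overlaps other genes. In DR1 *dlg-1* (0.83), *ajm-1* (0.83) and *lgl-1* (0.76) fell short of the fold threshold. They did so by less than total-count scaling raised the median of all genes, so the single call rests on the scaling. At the adjusted p, 5 of the 16 were higher and 3 lower in DR1, *crb-1* among the higher. In DR0, 4 were higher and 5 lower, and the medians with TMM scaling were -0.0082 in DR1 and 0.08 in DR0. None of 16 genes of apical trafficking and lumen maintenance was called by edgeR's quasi-likelihood test in either grade, although at the adjusted p alone 4 were higher and 7 lower in DR1, and 6 higher and 7 lower in DR0. Of 7 transporters and enzymes of the apical membrane, 3 were downregulated in each grade: *pho-1*, an acid phosphatase (-2.12 and -2.17), *vha-6*, the apical v-ATPase a subunit (-1.72 and -1.24), and *pgp-1*, a P-glycoprotein (-1.58 and -2.04). *pho-1* shares exonic bases with a neighbouring gene.

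Marker genes of several other tissues were summed as well. The summed expression of 6 germ line markers was 1803 to 1895 CPM for AL, 665 to 717 for DR1 and 1133 to 1175 for DR0. Of the 6, 5 were downregulated in DR1 and 1 in DR0. The sum was lowest in DR1, as were *act-5*, *ifc-2* and the other actins. This was not particular to the germ line: with TMM scaling, mean sums of muscle, intestine, epidermis, pharynx and neuron markers were lowest in DR1 too. The order depends on the scaling, since the TMM factor was 0.914 in AL replicate 1, 1.16 in DR1 replicate 1 and 0.944 in DR0 replicate 1. Without these factors the mean pharynx and neuron sums would be lowest in AL. The mean sum of excretory canal markers was lowest in DR0, and that of coelomocyte markers in AL. The 6 body wall muscle markers summed to 838 to 855, 469 to 517 and 1028 to 1045 CPM. The 6 excretory canal markers, a tissue that also uses *act-5*, *ifc-2* and *erm-1*, summed to 202 to 208, 122.04 to 126 and 98.0 to 111 CPM, and 1 of them, *vha-5*, was downregulated in each grade. Without *vha-5* the other 5 summed to 93.6 to 94.9, 94.7 to 102 and 85.8 to 97.8 CPM, so the sums then lay close together. That closeness holds for TMM scaling only. These sums hide moves in both directions. At the adjusted p, 2 of the 6 were higher and 3 lower in DR1, *vha-5* among the lower. In DR0, 1 was higher and 3 were lower, again with *vha-5*. Of 8 intestinal markers, 1 was upregulated and 2 downregulated in each grade, and they summed to 3135 to 3162, 2099 to 2274 and 3377 to 3549 CPM. The protease gene *asp-1* made up 86.5%, 83.9% and 83.4% of that sum, and the other 7 summed to 413 to 434, 341 to 365 and 573 to 580 CPM. The 6 epidermis markers, dominated in AL by the collagen gene *col-19*, summed to 1108 to 1162, 97.9 to 106 and 119.3 to 126.5 CPM. No marker of pharynx, neurons or coelomocytes was called against AL by edgeR's quasi-likelihood test. The 5 pharynx markers, of which 4 were tested, summed to 66.4 to 70.1, 58.1 to 64.9 and 72.0 to 77.4 CPM, and at the adjusted p alone 1 was lower in DR1 and 2 were higher in DR0. The 6 neuronal markers summed to 151 to 155, 143 to 152 and 179 to 190 CPM, with 1 lower in DR1, and 2 higher and 1 lower in DR0. The 3 coelomocyte markers, of which 1 was tested and was higher in both grades at the adjusted p, summed to 3.89 to 5.40, 4.802 to 8.20 and 6.85 to 7.61 CPM. None of these markers was at 0 in all libraries. The part of these shifts in the values of the 9 genes was not tested.

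The genes with a pattern nearest to *act-5* were sought among the 8429 tested genes at a mean of 10 CPM or more, by the root mean square difference of log2 CPM over the 9 libraries, each gene centred on its AL mean. The 5 nearest were F19C7.1 (0.0828), *cey-3* (0.1004), *dod-23* (0.111), *grd-5* (0.112) and *smd-1* (0.114). On the log2 scale F19C7.1 changed by -2.28 and -1.55 in the respective grades, and *grd-5*, a hedgehog-related gene, by -2.09 and -1.61. The 5 nearest to *ifb-2* were F30F8.1 (0.0632), *kynu-1* (0.0758), *vha-19* (0.0796), C08B6.8 (0.0802) and *clc-1* (0.0836). Of these, F30F8.1 changed by -1.11 and -1.09. None of the 9 brush border and terminal web genes was allowed in either list.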

How the data were processed

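The data are 9 RNA-seq libraries of whole N2 worms, 3 each of AL, DR1 and DR0, grouped by their labels. The deposited values are the authors' unnormalized read counts for each gene. Per the paper's methods, reads were aligned to WBcel235 with STAR and counted over exons with htseq-count in union mode without strand. The paper and the sample notes name different sequencers and aligner versions, and the notes name STAR 2.73a and edgeR 3.24.3. Positions, exonic lengths and current symbols are from Ensembl release 115, in which all 46926 identifiers were found.

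Tests were run with edgeR 4.0.16 in R 4.3.3 (filterByExpr, TMM, 1 mean per condition in one fit of 9 libraries, glmQLFit and glmQLFTest). The common biological coefficient of variation was 6.59%. P values were adjusted by Benjamini–Hochberg over 14332 genes. An s.e. was obtained by dividing the size of a log2 fold change by the root of its F statistic. The paper used limma-voom with the same thresholds, and it was an alternative here (limma 3.58.1), as was DESeq2 1.42.0. Other alternatives were RLE, total-count and upper-quartile scaling, other filters, each library left out, fits of only the compared conditions, the replicate number as a block, and no fold threshold. The test was tested on simulated data. The scalings of related genes and the marker sums without *asp-1* or *vha-5* were added after seeing the data.

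The 9 genes are all named. Every gene of the other actins, other intermediate filaments and network regulators is named, as are at most the 2 largest called rises and 2 largest called falls of each related list, taken for each comparison with AL where the higher group averages at least 10 CPM, and the 5 nearest patterns of *act-5* and *ifb-2*. *elt-2*, *elt-7*, *ges-1*, *nhx-2*, *asp-1*, *dlg-1*, *ajm-1* and *lgl-1* were named outside this rule, after their values were seen. Called genes of the tissue marker lists are not all named. Of 5 gut transcription factors, *pqm-1* was the 1 called, upregulated at 1.13 in DR1 and 1.54 in DR0. The 9 genes and the lists were chosen with earlier results of these data known. Lists are described by counts and medians. Sequences were not used here. Python 3.11.15, pandas 2.3.3 and matplotlib 3.10.9 served for tables and plots.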

Additional observations from a re-analysis of the deposited data

How the results depend on the processing

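Over 19 alternatives, 478 of 507 fold changes of the 9 genes kept their direction and their call at both thresholds, 7 lost a call, 5 gained one and 17 changed sign, none of them a called value. Among those that kept both, 6 came to meet the adjusted p and 7 no longer met it, 4 of the latter for *eps-8* in DR1. The losses and gains concern *ifb-2*, *ifc-1*, *ifc-2* and *ifd-1*, whose fold changes lie near the threshold. *act-5* was downregulated under every alternative in both grades. At the adjusted p alone, 8 genes differed in DR1 from AL, and 2 differed between the grades. At both thresholds, the count in DR0 against AL was 2 with upper-quartile scaling and 3 at a mean of at least 5 CPM. With 1 library left out, 4 to 5 genes were called in DR1, 4 to 5 in DR0 and 0 between the grades. Deviations of same-numbered libraries from their group means had correlations from -0.055 to 0.21, with 1 of 9 pairs over 0.1. The labels do not say whether equal numbers mark a shared batch, and 3 libraries per condition cannot decide it. With the replicate number as a block, 5 genes were called in DR1, *ifd-1* among them at -1.01, 5 in DR0 and 0 between the grades.

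Signs turned only for values close to 0. For *eps-8* they were 0.14 (total counts) in DR1, and 0.0063 (total counts), 0.16 (upper quartile) and 0.023 (at least 5 CPM) in DR0, and -0.13 (total counts) between the grades. *ifd-2* ranged from -0.13 to 0.14 in DR1, from -0.14 to 0.13 in DR0 and from -0.049 to 0.021 between the grades with 1 library left out, and was -0.0024 (DESeq2), -0.0012 (RLE) and -0.013 (no filter) in DR0. *ifb-2* between the grades was -0.23 with total counts, and *erm-1* ranged from -0.047 to 0.021 with 1 library left out. The cause of these shifts was not tested. Genes with under 100 counts per library, *ifc-1* and *ifd-1*, have the widest intervals.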
